A study of Mus musculus with 12 samples.

Results

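The 8 genes described here encode adult or fetal forms of the cardiac contractile proteins and were followed in the hearts of cmGch1 KO and WT mice. They are the myosin heavy chains Myh6, Myh7 and Myh7b, the sarcomeric actins Acta1 and Actc1, the troponin I genes Tnni1 and Tnni3, and the troponin T gene Tnnt1. The genes were chosen by name, and all 8 were found once among the 26921 genes of the count table. Total RNA from left ventricular tissue of 6 WT and 6 cmGch1 KO mice aged 16 weeks was sequenced. WT mice were Gch1 flox/flox without Cre, and cmGch1 KO mice were Gch1 flox/flox with α-MHC-Cre+/−. Both genotypes therefore carried the floxed alleles, and Cre recombinase was present only in the cmGch1 KO mice, so an effect of Cre and an effect of the Gch1 deletion cannot be told apart in these libraries. The α-MHC promoter that drives Cre is the promoter of Myh6, one of the genes described here.

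Cardiac muscle contracts when myosin heavy chains of the thick filament pull on actin in the thin filament, and the troponin complex on the thin filament lets calcium switch this on. The mouse ventricle exchanges the slow β-myosin heavy chain (Myh7) and the slow skeletal troponin I (Tnni1) of fetal life for the fast α-myosin heavy chain (Myh6) and cardiac troponin I (Tnni3) after birth. Acta1, the skeletal α-actin, is also a fetal form in the mouse heart, next to the cardiac α-actin Actc1 of the adult. A return of Myh7 and Acta1 in the adult ventricle is widely used as a marker of cardiac stress.

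The myosin genes Myh6 and Myh7 lie in tandem on the minus strand of chromosome 14 (GRCm38 chr14:54941921-54966927 and chr14:54970684-54994626), 3756 bases apart. Tnnt1 and Tnni3 are likewise neighbours on the minus strand of chromosome 7 (chr7:4504570-4516382 and chr7:4518305-4524229), 1922 bases apart. Myh7b (chr2:155611212-155634307, plus strand) and Actc1 (chr2:114047282-114053548, minus strand) share chromosome 2, while Acta1 lies at chr8:123891769-123894751 on the minus strand and Tnni1 at chr1:135779434-135810989 on the plus strand. Each of the 3 myosin genes holds a microRNA within an intron. The mature sequences are shown because they group by seed across the adult and fetal hosts. They are taken from RefSeq (GRCm38.p6), with the seed, bases 2 to 8, in capitals.
miR-208a-3p in Myh6: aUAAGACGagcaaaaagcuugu
miR-208b-3p in Myh7: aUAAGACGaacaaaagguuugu
miR-499-5p in Myh7b: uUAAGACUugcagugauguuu
The seeds of miR-208a-3p and miR-208b-3p were identical, and these 2 miRNAs differed at 3 of their 22 bases. The libraries did not measure mature miRNAs. The row of Mir208b held 77 to 398 counts per library (6.94 ± 2.63 against 5.08 ± 1.09 cpm, counts scaled to a library of 1000000 counts, WT against cmGch1 KO, mean ± SD, n = 6 each, adjusted p = 0.501), that of Mir208a 0 to 9 counts, and that of Mir499 was at 0 in all 12 libraries.

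The sequence before the RefSeq start site is shown for the 4 genes of the myosin and actin pairs whose ratios are compared below (GRCm38.p6, 5′ to 3′ on the strand of the gene). Capitals mark a CArG box, which is bound by serum response factor, the sequence CATTCC on either strand, which is the core that TEAD factors bind, or TATAAA. Bases next to the start that GENCODE M21 places in an exon are left out. The windows of Myh6 and Actc1 lie inside the GENCODE intervals of these genes, and those of Myh7 and Acta1 lie upstream of them. Distances are counted from the RefSeq start. The intervals are chr14:54966642-54966857 for Myh6, chr14:54994627-54994876 for the first of 2 Myh7 start sites, chr8:123894776-123895025 for Acta1 and chr2:114052888-114053125 for Actc1.
Myh6: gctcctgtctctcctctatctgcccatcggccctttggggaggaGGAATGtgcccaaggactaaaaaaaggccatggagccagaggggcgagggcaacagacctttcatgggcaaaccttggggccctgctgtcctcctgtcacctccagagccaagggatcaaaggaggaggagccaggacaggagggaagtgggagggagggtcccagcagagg
Myh7: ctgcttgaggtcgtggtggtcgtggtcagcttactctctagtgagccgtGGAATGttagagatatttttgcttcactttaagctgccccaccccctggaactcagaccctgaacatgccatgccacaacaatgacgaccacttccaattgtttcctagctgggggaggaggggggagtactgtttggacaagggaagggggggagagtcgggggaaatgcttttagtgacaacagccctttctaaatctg
Acta1: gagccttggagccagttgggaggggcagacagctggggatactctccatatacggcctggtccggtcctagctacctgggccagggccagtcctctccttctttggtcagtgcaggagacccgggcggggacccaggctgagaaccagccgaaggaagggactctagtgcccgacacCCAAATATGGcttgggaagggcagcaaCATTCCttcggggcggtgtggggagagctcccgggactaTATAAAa
Actc1: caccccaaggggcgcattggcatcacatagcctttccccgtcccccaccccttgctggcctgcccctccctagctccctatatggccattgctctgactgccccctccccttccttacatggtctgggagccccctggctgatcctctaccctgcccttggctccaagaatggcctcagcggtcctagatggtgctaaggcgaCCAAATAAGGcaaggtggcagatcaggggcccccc
The window of Acta1 held a CArG box from 73 bases upstream of its start, CATTCC from 46 bases upstream and TATAAA from 7 bases upstream. That of Actc1 also held a CArG box, from 47 bases upstream, but no CATTCC or TATAAA. Both myosin windows held CATTCC on the opposite strand, from 206 bases upstream in Myh6 and 201 in Myh7. Among 32841 RefSeq windows of the same 250 bases, 1.47% held a CArG box, 12.6% CATTCC and 12.4% TATAAA, both strands searched. All 8 genes had a window, and 7 of the 8 held CANNTG, which 66.2% of all windows hold. GATAA (22.6% of all windows) and AGGTCA (14.0%) were found only for Myh7b among the 8 genes, TATAAA also for Tnnt1, and a MEF2 site (2.92%) for none. A match is a description of the letters in this window.

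Each library held 19921398 to 37917806 counts, and the 8 genes together took 3.19% to 3.71% of them in WT and 2.73% to 3.82% in cmGch1 KO libraries. Gch1, the targeted gene, was at 10.7 ± 0.974 cpm in WT and 5.48 ± 0.855 in cmGch1 KO libraries (log2 fold change −0.96, adjusted p = 6.88e-04), and the 2 genotypes did not overlap. cmGch1 KO replicates 2 and 3 stood apart from the other 10 libraries: Xist was at 86.7 and 99.1 cpm and Uty, Kdm5d, Ddx3y and Eif2s3y, all Y-linked, were at 0, whereas the others held Xist at 0.234 or less and a summed Y-linked level of 167 to 192. High Xist without Y-linked counts is the pattern of female tissue and the reverse that of male tissue, but the labels give no sex. All WT libraries had the male pattern, so it was not balanced between the genotypes. cmGch1 KO replicates 2 and 3 also had the lowest share of mitochondrial counts (14.9% and 16.1%). Without them, 38 genes passed the test in place of 126, and Gch1 kept its call (log2 fold change −0.99, adjusted p = 0.00762). The ventricular markers Myl2, Myl3, Tnnt2, Tnnc1, Actn2, Mybpc3, Ryr2 and Ttn were abundant in all 12 libraries (summed level 26905 to 33142 cpm), and none of them passed the test between genotypes, the largest log2 differences being those of Myl2 (−0.22), Ryr2 (−0.21) and Myl3 (−0.20).

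The order of the 8 genes by level per kilobase of exon was the same in both genotypes. Actc1 was first at 5284 ± 288 cpm per kilobase in WT, followed by Myh6 (3428 ± 428), Tnni3 (1773 ± 249), Acta1 (177 ± 25.7), Myh7 (42.7 ± 7.12), Myh7b (13.9 ± 4.43), Tnnt1 (6.71 ± 0.597) and Tnni1 (0.107 ± 0.0521; mean ± SD, n = 6). The adult forms Actc1, Myh6 and Tnni3 thus held the first 3 places. Within each genotype the ranges of neighbouring genes did not overlap, except those of Myh7b and Tnnt1. The level of Tnni1 rests on 4 to 23 counts per library.

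**Figure D1:**
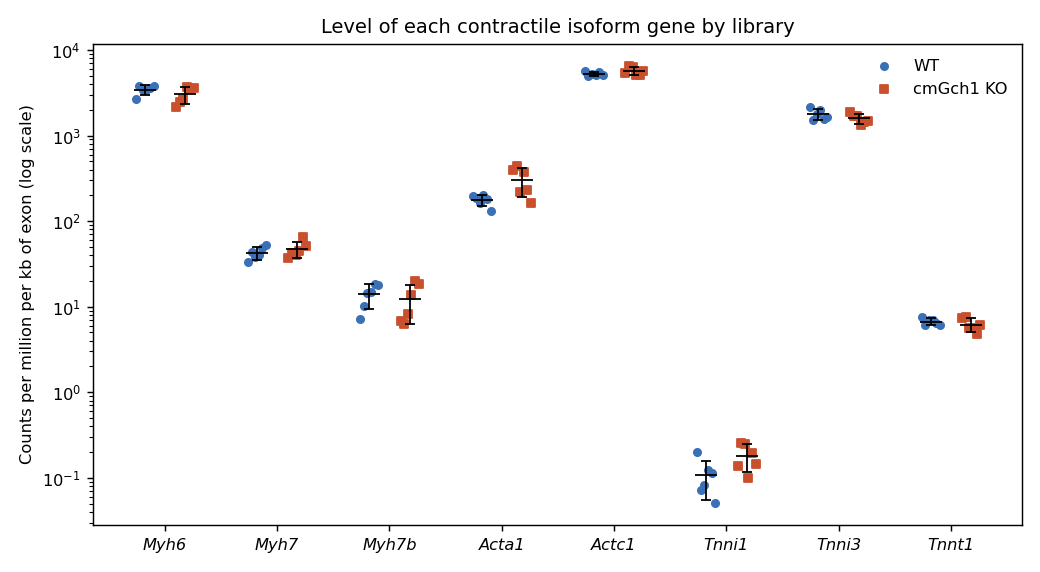
Level of the 8 genes in cpm per kilobase of exon (log axis) in 6 WT (circles) and 6 cmGch1 KO libraries (squares), with mean and SD as black bars. The genes span from 0.107 for Tnni1 to 5284 for Actc1 in WT means, and the groups overlap for every gene.

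The question was whether the loss of cardiomyocyte Gch1 came with a shift of these isoforms. None of the 7 genes with enough counts for the test passed an adjusted p of 0.05, and their libraries overlapped between genotypes for all 7. Over all 11225 tested genes, 126 (1.12%) passed, 76 higher and 50 lower in cmGch1 KO, and 1.87% did not overlap. At an unadjusted p under 0.05 there was 1 of the 7, Acta1, where 11.5% of all genes reached that level. The median log2 fold change of the 7 was −0.12, against −0.01 for all tested genes. In whole tissue, fewer cells of a type and less RNA per cell cannot be told apart.

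Myh6, the fast α-myosin heavy chain, was at 17753, 25615, 22741, 22699, 24139 and 25373 cpm in WT replicates 1 to 6 and at 14585, 16663, 18060, 24505, 23687 and 24314 in cmGch1 KO replicates 1 to 6. The first 3 cmGch1 KO replicates were low, together with WT replicate 1. cmGch1 KO replicates 1 and 2 lay below the WT range and the others within it. The log2 fold change was −0.18 (SE 0.14, 95% interval −0.48 to 0.12, adjusted p = 0.714).

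Myh7, the slow β-myosin heavy chain of the fetal ventricle, was at 283, 375, 328, 349, 422 and 450 cpm in WT and at 322, 365, 348, 382, 558 and 446 in cmGch1 KO replicates. Only cmGch1 KO replicate 5 exceeded the WT range. Its log2 fold change was 0.13 (SE 0.14, 95% interval −0.16 to 0.43, adjusted p = 0.815).

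Within a genotype the ratio of the 2 genes varied less than either gene alone. Myh7 stood at 15.9, 14.6, 14.4, 15.4, 17.5 and 17.7 counts per 1000 counts of Myh6 in WT replicates and at 22.1, 21.9, 19.3, 15.6, 23.6 and 18.3 in cmGch1 KO replicates. Thus 5 of 6 cmGch1 KO libraries lay above all WT libraries, and cmGch1 KO replicate 4 lay among them. The ratio was 1.26-fold higher in cmGch1 KO (log2 difference 0.33, two-sided exact permutation p = 0.0130, where the smallest possible p is 0.00216), with p = 0.0390 by the Benjamini-Hochberg adjustment over the 6 ratios computed. Without cmGch1 KO replicates 2 and 3 the difference was 0.31 (exact permutation p = 0.0381, adjusted p = 0.105). When each library was left out in turn the exact permutation p was 0.00216 to 0.0281 and the adjusted p 0.0130 to 0.0844, which was under 0.05 only without cmGch1 KO replicate 4. Scaled by exon length, Myh7 made up 1.23% ± 0.107 of the sum of both genes in WT and 1.55% ± 0.222 in cmGch1 KO (SD, n = 6 each), so that Myh6 remained by far the main form in every library. With Tnnt2 in place of Myh6 as the denominator, a choice made after seeing the data, the difference of Myh7 was 0.24 (exact permutation p = 0.199), and neither gene passed the test alone. Myh6 and Myh7 share 22.6% of the 50-base windows and 11.4% of the 100-base windows of the longest Myh6 transcript, so reads from the abundant Myh6 could have been counted to Myh7 where the counting split them.

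**Figure D2:**
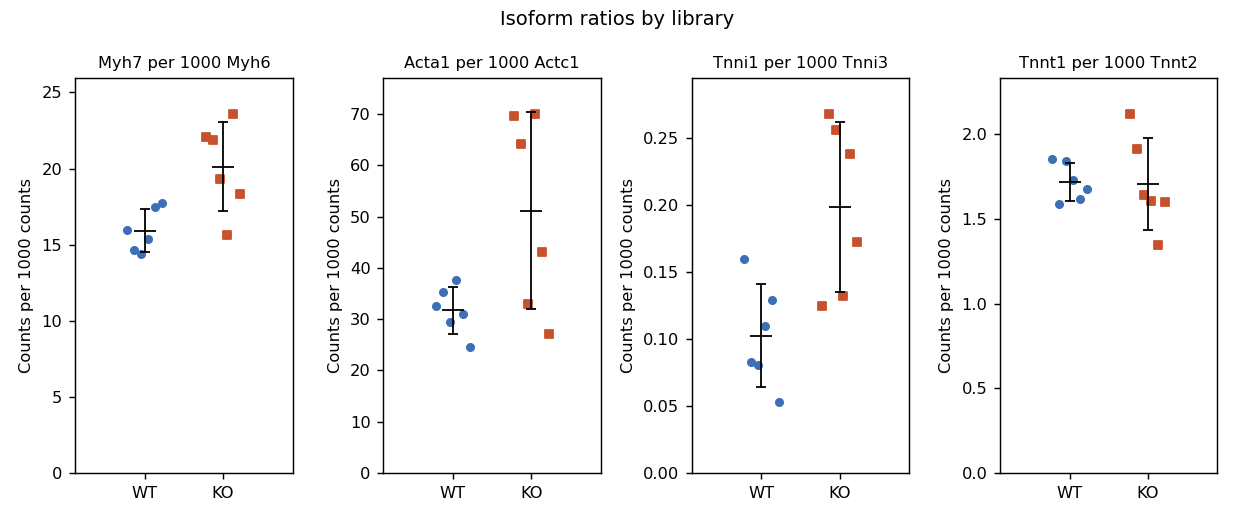
Counts of the fetal or minor form per 1000 counts of the adult form in each WT (circles) and cmGch1 KO (squares) library, with mean and SD, on axes from 0. For Myh7 against Myh6, 5 cmGch1 KO libraries lie above the WT range of 14.4 to 17.7, and for Acta1 against Actc1 the cmGch1 KO libraries spread from 27.2 to 69.95.

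Myh7b, a slow-type myosin heavy chain gene, was the most variable of the myosins. Its level was 47.6 to 122 cpm in WT (median 97.0), against 41.3 to 132 in cmGch1 KO (median 72.1). The first 3 cmGch1 KO replicates were low (45.2, 41.3 and 54.5), as was WT replicate 1. The log2 fold change was −0.19 (SE 0.31, 95% interval −0.85 to 0.47, adjusted p = 0.904), and it changed sign, to 0.08, without cmGch1 KO replicates 2 and 3. Per 1000 counts of Myh6, Myh7b was at 3.95 ± 1.04 in WT and 3.80 ± 1.21 in cmGch1 KO (log2 difference −0.07, exact permutation p = 0.779). The antisense transcript Mhrt, which shares 484 exon bases with Myh7 and is known for its part in the myosin switch, was at 18.4 ± 5.93 against 16.3 ± 3.34 cpm (adjusted p = 0.836). Since the strand setting of the counting is not given in the sources used here, reads of Myh7 and of Mhrt may not have been kept apart.

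Acta1, the skeletal α-actin, showed the largest log2 fold change among the 7 tested genes. It was at 303, 282, 251, 313, 275 and 204 cpm in WT and at 600, 677, 338, 576, 356 and 251 in cmGch1 KO replicates. All but cmGch1 KO replicate 6 were above the highest WT library, and cmGch1 KO replicates 1, 2 and 4 were at least 576. The means were 271 ± 39.5 and 466 ± 173 (SD, n = 6 each), with a log2 fold change of 0.78 (SE 0.21, 95% interval 0.32 to 1.24). Its unadjusted p was 0.00251 in the edgeR fit, and the adjusted p of 0.118 missed the threshold. The exact permutation test of its level alone gave p = 0.0173. Without cmGch1 KO replicates 2 and 3 the log2 fold change was 0.72 (SE 0.21, adjusted p = 0.310). Acta1 passed the threshold under 5 of 24 other settings. Among these were DESeq2 (adjusted p = 0.0125), a replicate block (adjusted p = 0.0285) and 1 surrogate variable (adjusted p = 0.0269). It also passed with the length slope described below (adjusted p = 0.0307). Leaving out cmGch1 KO replicate 6 gave an adjusted p of 0.0293 and a log2 fold change of 0.91. Over all genes, 373, 188, 636, 582 and 113 passed in that order, against 126 in the main fit. The surrogate variable and the length slope had opposite signs in every library, so these settings are not independent.

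Actc1, the cardiac α-actin and the main actin of the adult ventricle, was at 8550 ± 466 cpm in WT and 9189 ± 1004 in cmGch1 KO. The highest levels were in cmGch1 KO replicates 2 and 3, at 10552 and 10235, and the other 4 cmGch1 KO libraries lay within the WT range. Its log2 fold change was 0.10 (SE 0.08, 95% interval −0.07 to 0.28, adjusted p = 0.724). Acta1 stood at 32.5, 35.3, 29.4, 37.6, 31.0 and 24.6 counts per 1000 counts of Actc1 in WT and at 69.7, 64.1, 33.0, 69.95, 43.0 and 27.2 in cmGch1 KO. In 4 cmGch1 KO libraries the ratio exceeded all WT libraries, and replicates 3 and 6 lay within the WT range. The log2 difference of 0.61 (1.52-fold) had an exact permutation p of 0.0519 (adjusted p = 0.104 over the 6 ratios), and leaving out each library in turn gave 0.50 (without cmGch1 KO replicate 4) to 0.77 (without cmGch1 KO replicate 6), with an exact permutation p of 0.00866 to 0.0996 that was under 0.05 without cmGch1 KO replicate 3 or 6. Acta1 and Actc1 share no stretch of 50 identical bases in their longest transcripts, and Acta1 shared 2.22% of such windows with other genes.

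Tnni1, the slow skeletal troponin I of the fetal heart, was near the limit of detection. WT libraries held 23, 9, 8, 16, 13 and 4 counts and cmGch1 KO libraries 12, 20, 21, 12, 18 and 19, too few to enter the test across genes. The summed counts were 73 in WT (95% Poisson interval 57.2 to 91.8, counting error only) and 102 in cmGch1 KO (83.2 to 124). In cpm the level was 0.385 ± 0.188 against 0.651 ± 0.232 (exact permutation p = 0.0606). When all genes were tested without a filter, the adjusted p was 0.562.

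Tnni3, the cardiac troponin I, was at 4458, 3158, 3674, 4049, 3185 and 3423 cpm in WT and at 3932, 3455, 3532, 2733, 2942 and 3041 in cmGch1 KO. The last 3 cmGch1 KO replicates were below all WT libraries, and the log2 fold change was −0.16 (SE 0.11, 95% interval −0.39 to 0.07, adjusted p = 0.663). Tnni1 stood at 0.103 ± 0.0383 counts per 1000 counts of Tnni3 in WT and 0.198 ± 0.0636 in cmGch1 KO. The ratio was higher in cmGch1 KO, with 4 of 6 libraries above all WT libraries (log2 difference 0.97, exact permutation p = 0.0130, adjusted p = 0.0390 over the 6 ratios). Without cmGch1 KO replicates 2 and 3, which have the 2 highest ratios, the difference was 0.74 (exact permutation p = 0.0524, adjusted p = 0.105). With a replicate block the exact p was 0.0938, and in the deposited normalized values the difference was 0.34 (exact permutation p = 0.00649). When each library was left out in turn the adjusted p was 0.0390 to 0.0844, under 0.05 only without cmGch1 KO replicate 4. The highest library held 0.268 counts of Tnni1 per 1000 counts of Tnni3.

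Tnnt1, the slow skeletal troponin T, was at 14.8 ± 1.32 cpm in WT and 13.6 ± 2.45 in cmGch1 KO (log2 fold change −0.12, SE 0.11, 95% interval −0.36 to 0.12, adjusted p = 0.784). Levels were 13.4 to 16.9 in WT, against 10.6 to 16.7 in cmGch1 KO, where 4 libraries were below all WT libraries. Per 1000 counts of Tnnt2, the cardiac troponin T, Tnnt1 was at 1.72 ± 0.112 and 1.70 ± 0.272 (log2 difference −0.02, exact permutation p = 0.818).

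**Figure D3:**
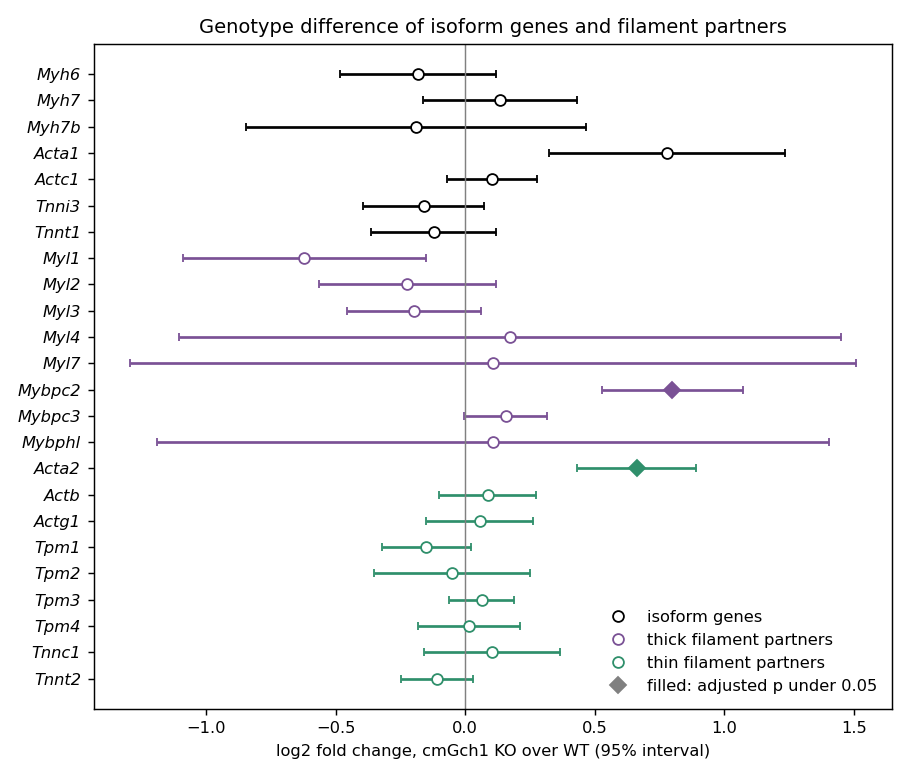
Log2 fold change of cmGch1 KO over WT with its 95% interval for the 7 tested isoform genes (black) and for the tested partner genes of the thick (purple) and thin (green) filament, where filled diamonds have an adjusted p under 0.05. Acta1 lies at 0.78 with an open symbol, and Mybpc2 (0.80) and Acta2 (0.66) are the filled ones.

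Among 16 partner genes of the thick filament, 8 were tested, and 1 was called higher and 0 lower. Mybpc2, the fast skeletal form of myosin-binding protein C, rose from 28.6 ± 4.87 to 49.8 ± 7.89 cpm (log2 fold change 0.80, SE 0.13, adjusted p = 0.00665). Without cmGch1 KO replicates 2 and 3 the log2 fold change was 0.77 and the adjusted p of 0.0542 missed the threshold. The cardiac form Mybpc3 was at 3524 ± 171 and 3926 ± 377 (adjusted p = 0.453). The light chains Myl1 (log2 fold change −0.62, adjusted p = 0.248) and Myl2 (−0.22, adjusted p = 0.685) did not pass. The median of the 8 was 0.11.

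Among 13 partner genes of the thin filament, 9 were tested, and 1 was called higher and 0 lower, with a median log2 fold change of 0.06. Acta2, the smooth muscle α-actin, which is also expressed in the early embryonic heart, rose from 126 ± 14.2 to 199 ± 31.9 cpm (log2 fold change 0.66, SE 0.11, adjusted p = 0.00672), and by 0.52 on the log2 scale without cmGch1 KO replicates 2 and 3 (adjusted p = 0.0392). Tropomyosin Tpm1 (−0.15, adjusted p = 0.526) and Tnnt2 (−0.11, adjusted p = 0.590) did not pass. Of 25 regulators of isoform expression, among them thyroid hormone receptors, TEAD factors, serum response factor with its partners, and MEF2 factors, 23 were tested, 0 were called by edgeR in either direction and 0 had an unadjusted p under 0.05. The largest differences were those of Dio2, the deiodinase that activates thyroid hormone (0.22, adjusted p = 0.816), the thyroid hormone receptor Thrb (−0.19, adjusted p = 0.677) and Mhrt (−0.17). Srf itself was at 146 ± 10.2 and 159 ± 20.8 cpm (adjusted p = 0.690), and Tead1 at 194 ± 39.1 and 186 ± 36.3 (adjusted p = 0.950).

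Acta1, Tnni1 and Mybpc2 are also expressed in skeletal muscle, and smooth muscle holds Acta2, so the markers of those tissues were read beside them. The summed level of 12 skeletal muscle markers was 12.3 to 15.8 cpm in WT, against 17.2 to 24.2 in cmGch1 KO, without overlap, also when cmGch1 KO replicates 2 and 3 were left out (17.2 to 23.8). Casq1, a calsequestrin, made up most of it (10.9 ± 1.81 and 15.5 ± 1.69, adjusted p = 0.0573, or 0.277 without cmGch1 KO replicates 2 and 3). The fast skeletal forms Tnni2 (0.853 to 2.11 cpm in WT, against 1.38 to 3.10), Mylpf (0.705 ± 0.140 and 1.16 ± 0.520) and Tnnt3 (0.347 ± 0.135 and 0.723 ± 0.193) had too few counts for the test, and their part in the levels of Acta1, Tnni1 and Mybpc2 was not tested. The defining myosins Myh1 and Myh2 did not exceed 0.139 cpm in any library, Myod1 did not exceed 0.183, and Myh4 was at 0 in all 12. At these low levels the means of Myod1, Actn3, Myh1 and Tnnc2 were lower in cmGch1 KO, and those of Pvalb, Myh2 and Myog higher. Of 5 smooth muscle markers 4 were tested, and only Acta2 was called. The sum of the 5 was 200 to 263 in WT, against 235 to 348 in cmGch1 KO. Acta2 itself made up most of it (126 ± 14.2 and 199 ± 31.9). Myh11 (−0.24, adjusted p = 0.450), Tagln (−0.40, adjusted p = 0.491) and Cnn1 (−0.21, adjusted p = 0.904) had negative differences. Actg2, with too few counts for the test, was at 0.981 ± 0.496 and 0.853 ± 0.586.

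Atrial markers varied between libraries without a call. The sum over 6 of them was 40.6 to 380 cpm in WT, against 96.9 to 249 in cmGch1 KO, with Sln (−0.36), Dkk3 (0.28) and Myl4 (0.17) showing the largest log2 differences of the 5 tested. The atrial light chain Myl7 stood at 0.544 to 14.1 counts per 1000 counts of Myl2 in WT and 3.68 to 16.2 in cmGch1 KO (log2 difference 1.07, exact permutation p = 0.284). WT replicates 5 and 6 were the lowest (0.837 and 0.544), and the medians were 5.70 in WT and 5.35 in cmGch1 KO. None of 6 conduction system, 5 fibroblast, 5 endothelial or 5 macrophage markers was called by edgeR, and at an unadjusted p under 0.05 there were 1, 0, 0 and 5 of them. The largest log2 differences were those of Hcn4 (−0.32), Cntn2 (0.16) and Tbx3 (−0.06) for the conduction system, of Lum (0.27), Col1a1 (0.12) and Col1a2 (0.10) for fibroblasts, of Emcn (0.14), Kdr (0.07) and Tek (0.05) for the endothelium, and of Cd68 (0.39), Adgre1 (0.38) and C1qa (0.27) for macrophages. The macrophage markers Cd68, Csf1r, Adgre1, C1qa and Mrc1 summed to 101 to 117 in WT, against 118 to 143 in cmGch1 KO with or without replicates 2 and 3, and their part in the isoform differences was not tested.

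Across the libraries of a genotype, Myh6 varied inversely to Tnni3. In WT, Myh6 was low where Tnnt1 (r = −0.95, rho = −1, exact permutation p = 0.00139 and 0.00278, n = 6) and Tnni3 (r = −0.89, rho = −0.94, exact permutation p = 0.00694 and 0.0167) were high. In cmGch1 KO, Myh6 and Tnni3 had r = −0.96 (rho = −0.89, exact permutation p = 0.0111 and 0.0333). Without the 2 libraries farthest from the Myh6 median, these r were −0.995, −0.71 and −0.92. Myh6 and Tnnt1 in cmGch1 KO had r = −0.75 (rho = −0.49, exact permutation p = 0.115 and 0.356), and r was near 0 without the 2 farthest libraries. Of 42 correlations, 21 pairs in each genotype, 9 had an unadjusted p under 0.05, and 0 passed after adjustment (smallest adjusted p = 0.0583, exact permutation).

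A measure that moved with these levels was the slope, in each library, of expression on exon length over 11195 tested genes. It was −0.11 to 0.09 in WT, against −0.13 to 0.08 in cmGch1 KO (log2 cpm per log2 base) and did not differ between genotypes (exact permutation p = 0.933). Over the 12 libraries it correlated with Myh6 (r = 0.81, rho = 0.93, permutation p = 0.00230 and 5.0e-05), Myh7 (r = 0.77, rho = 0.78, permutation p = 0.00231 and 0.00438) and, inversely, Tnni3 (r = −0.86, rho = −0.83, permutation p = 0.000310 and 0.00157) and Tnnt1 (r = −0.77, rho = −0.73, permutation p = 0.00355 and 0.00929). Over the 7 genes tested, the largest adjusted p of these 4 was 0.00621 for r and 0.0163 for rho. Without the 2 libraries farthest from the median slope, r was 0.65, 0.66, −0.81 and −0.67 in that order. Within WT the r of the 4 genes were 0.82, 0.85, −0.93 and −0.95, and within cmGch1 KO they were 0.98, 0.75, −0.94 and −0.82. Acta1 had r = −0.38 (rho = −0.37, permutation p = 0.224 and 0.238), adjusted p = 0.262 for r. Actc1 had r = −0.34 (rho = −0.63, permutation p = 0.283 and 0.0325), and Myh7b had r = 0.66 (rho = 0.50, permutation p = 0.0233 and 0.0971), which fell to 0.45 without the 2 farthest libraries. The exons of Myh6, Myh7 and Myh7b hold 6726, 8616 and 6634 bases, those of Tnni3 and Tnnt1 2063 and 2204, and those of Acta1 and Actc1 1536 and 1618. The isoform genes were among those that gave the slope. By its definition the slope tends to go with long genes and against short ones. These p therefore do not set the isoform genes apart from others of like length. The share of all tested genes that follow the slope as closely was not computed.

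**Figure D4:**
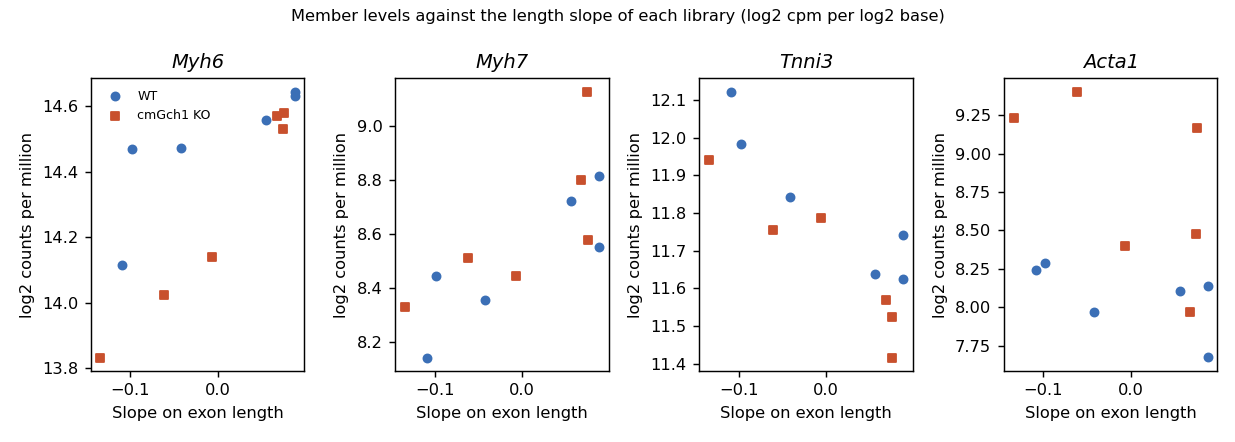
Level of Myh6, Myh7, Tnni3 and Acta1 (log2 cpm) against the slope of expression on exon length of each library, with WT as circles and cmGch1 KO as squares. Myh6 and Myh7 rise and Tnni3 falls along the slope, with r of 0.81, 0.77 and −0.86, and Acta1 has r of −0.38.

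With that slope as a covariate, a fit added after seeing the data, the difference of Myh6 was −0.22 (SE 0.08, adjusted p = 0.114), that of Myh7 0.12 (SE 0.09, adjusted p = 0.474), that of Tnni3 −0.15 (SE 0.05, adjusted p = 0.102) and that of Acta1 0.77 (SE 0.19, adjusted p = 0.0307). The errors of Myh6 and Tnni3 were smaller than without the covariate, and the directions were kept.

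The genes whose level was most like that of each isoform gene over the 12 libraries (Pearson r of log2 cpm, a description) were sought. The search covered all tested genes other than the isoform genes themselves. Acta1 was most like Uchl1, a ubiquitin hydrolase (r = 0.98), followed by Prss23 (0.93) and Zdhhc24 (0.90). Uchl1 remained first after the genotype means were subtracted (0.97), then followed by Gm14261 and Necap2. Uchl1 itself was at 9.70 ± 1.28 and 14.7 ± 3.67 cpm (log2 fold change 0.59, adjusted p = 0.105). Myh6 was most like Il12rb2 (0.98), Hrc, a calcium-binding protein of the sarcoplasmic reticulum (0.97), and Brd1 (0.97), and, with genotype means subtracted, like Myh14, Il12rb2 and Prpf6. Myh7 was most like Spred2 (0.93), Cltc and Pds5b, or Unk, Mdm4 and Dhx15 with the means subtracted. Myh7b was most like Ddx5, an RNA helicase (0.98 on either basis), with Coro6 and Atxn2l, or Gm9821 and Fam193b, next. Actc1 was most like Lingo3 (0.91), Pgam1 and Gm17029, or Med27, Lingo3 and Pgam1. Tnni3 was most like Rex1bd (0.98), Npm3 and Fabp3, the cardiac fatty acid-binding protein (0.97), or Mrps14, Rex1bd and Npm3. Tnnt1 was most like Pcmt1 (0.94), Spag7 and Ube2g2, or Pcmt1, Acbd4 and Snx17.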

How the data were processed

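Per the study's methods, the authors prepared dUTP-marked paired-end libraries, aligned them with HISAT2 and counted genes with featureCounts (GRCm38 and SAMtools in the submitters' notes). The annotation and strand setting of the counting are not given in the sources used here. The authors deposited raw counts per gene, and normalized log2 values that served only as an alternative. Names came from GENCODE M21 (98.7% of identifiers matched). Genes with more than 3 cpm (counts scaled to a library of 1000000 counts) in at least 6 libraries, 11225 in all, were tested with edgeR 4.0.16 (TMM, quasi-likelihood test, Benjamini-Hochberg adjustment, threshold 0.05) in R 4.3.3. On simulated counts, 96.4% of 193 changed genes were recovered, with 15 false calls (7.46% of calls). Whether differences as small as those of the isoform genes would be recovered was not tested. Levels are TMM-scaled cpm (prior count 2 on the log2 scale). Ratios are raw counts of 2 genes of a library, tested by two-sided exact permutation of the log2 ratio. Correlations used all 720 pairings within a genotype, or 100000 resamples over 12 libraries. Depth was 19921398 to 37917806 counts, and a count of 0 allows up to 3 counts (0.0791 to 0.151 cpm, counting error only). The labels give no batch, and the study's methods count a mouse as the experimental unit.

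The text names the 8 genes, Gch1, Xist and 4 Y-linked genes, called genes and the 3 largest differences of each list, and the 3 genes most like each isoform gene. Srf, Tead1, Mybpc3, Mir208b and Uchl1's level were chosen after their values were seen. The genes and lists were chosen with earlier results of these data known. Alternatives were other scalings, filters and covariates, DESeq2 1.42.0, limma 3.58.1 on the deposited log2 values, 1 surrogate variable (sva 3.50.0), a replicate block and leaving out libraries. Same-numbered libraries had residual correlations of 0.68, −0.09, −0.08, −0.13, 0.40 and 0.51 for replicates 1 to 6. The highest of each WT library with another number was 0.34, 0.30, 0.19, 0.37, 0.27 and 0.41. Same-numbered libraries were thus the most alike for replicates 1, 5 and 6 only. The labels do not say that the numbers pair libraries, so the main fit did not pair them.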

Additional observations from a re-analysis of the deposited data

Results flagged for a closer look

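A single library stood apart from the other 5 of its genotype, by Dixon's criterion at the 95% level, for 2 of 48 sets of 6 values examined, and chance gives about 1 in 20. Myh6 was at 17753 cpm in WT replicate 1, below the next WT library by 0.629 of the WT range. The summed thick filament partner genes were at 18806 cpm in cmGch1 KO replicate 1, above the next cmGch1 KO library by 0.666 of the range. Both libraries are among those with the most negative length slope (−0.11 and −0.13), whose part in these values was not tested.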

How the results depend on the processing

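The number of isoform genes called was 0, and it was 1 (Acta1) with DESeq2, the replicate block, 1 surrogate variable and the length slope, and 0 to 1 when a library was left out. The number of all genes called was 126, against 373 with DESeq2, 636 with 1 surrogate variable, 582 with the length slope, 64 with sex-linked expression as covariate, 38 without the 2 libraries with high Xist, and 74 to 216 when a library was left out. Scaling by library size alone moved the median of all genes to 0.07 and the split of calls to 116 higher and 36 lower. The replicate block gave a p of 0.0312, the smallest that 64 sign flips allow, for the ratios of Acta1 to Actc1 (0.61) and Myh7 to Myh6 (0.33), and 0.0938 for Tnni1 to Tnni3 (0.97). It called 188 genes, and the labels do not say whether same-numbered libraries share more than a number. The ratio of Myh7 to Myh6 kept an unadjusted exact p under 0.05 under every setting but Tnnt2 as the denominator (0.24), with 0.28 to 0.40 when a library was left out. Adjusted over the 6 ratios, its p and that of Tnni1 to Tnni3 were each under 0.05 in 3 of 16 settings. That of Tnni1 to Tnni3 was 0.74 (p = 0.0524, exact) without the 2 libraries with high Xist, 0.80 to 1.12 when a library was left out, and 0.34 in the deposited normalized values. That of Acta1 to Actc1 was 0.50 to 0.77 when a library was left out. With Tnnt2 in place of Actc1, a choice made after seeing the data, the difference of Acta1 was 0.81 (p = 0.0108, exact). Of the 4 ratios without a call, 2 changed sign. Myh7b to Myh6 was 0.14 without the 2 libraries with high Xist and −0.19 to 0.043 when a library was left out. Tnnt1 to Tnnt2 was 0.0092 in the deposited normalized values and −0.090 to 0.041 when a library was left out. The log2 fold change of Myh7b was 0.048 with sex-linked expression as covariate and 0.080 without the 2 libraries with high Xist. The causes were not tested. The Acta1 fold change stayed positive, at 0.64 to 0.91 when a library was left out. No correlation between isoform genes passed under any of the 3 scalings. Depth limits Tnni1, at 4 to 23 counts.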
